A study of Mus musculus with 6 samples.

Results

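The cell cycle genes described here are 49 listed genes of the G1/S transition, of DNA replication and of mitosis, of which 48 were measured among 19938 genes in all. A member was any probe set of the expression array annotated to exactly 1 of the listed symbols, with the brightest probe set kept where a gene had several. Ccnb1, the gene of cyclin B1, matched no probe set annotated to exactly 1 symbol, so its expression was not analysed here. It enters only the promoter search, where it counts as a mitotic gene. The 48 genes fall into 9 G1/S cyclins, kinases and E2f1, 2 inhibitors of cyclin-dependent kinases (CDKs), 12 replication genes and 25 mitotic genes. RNA came from small intestine of mouse embryos at E18.5, shortly before birth, from 3 E-cadherin conditional knockouts (cKO) and from 3 controls labelled wildtype, each on 1 Affymetrix Mouse Gene 1.0 array. E-cadherin, the product of Cdh1, joins epithelial cells at adherens junctions. The cell type in which Cdh1 was recombined, the deleted exons and the strain are not stated in the labels. Nor do the labels name separate animals for the samples of a group, and the p-values reflect the spread among samples that may be technical repeats.

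A cell that divides passes from G1, in which D-type cyclins with CDK4 or CDK6 inactivate the retinoblastoma protein and free E2F transcription factors, into S phase, in which the MCM helicase opens licensed origins and DNA is copied. In G2 and mitosis, cyclin B with CDK1 and the Polo and Aurora kinases drive chromosome segregation, and a contractile ring then cuts the daughter cells apart. In the fetal intestine, dividing epithelial cells come to lie between the villi, while cells on the villi leave the cycle, and the mesenchyme divides as well. Genes of S phase often carry E2F sites in their promoters, whereas many mitotic genes carry CCAAT boxes and a cell cycle homology region (CHR) close to the gene start.

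Promoter windows were available from RefSeq (build GRCm38.p6) for 39 of the 49 listed genes, each spanning 250 bases before to 50 bases after a gene start. They were searched on both strands for the CHR letters TTTGAA and TTCGAA, for CCAAT, and for the E2F letters TTTCGCGC, TTTGGCGC, TTTCCCGC and TTTGGCGG. CHR letters were found in 17 of 22 mitotic genes with a window (77.3%), in 2 of 10 replication genes and in 0 of 6 G1/S genes, against 21.7% of all 27018 genes with a window. E2F letters were found in 5 of 10 replication genes (Cdt1, Mcm3, Mcm5, Mcm6 and Mcm7), in 1 of 22 mitotic genes (Cdk1) and in 1 of 6 G1/S genes (Cdk2), against 2.70% of all genes. CCAAT was found in 18 mitotic and 8 replication genes, against 41.1% of all genes. In 16 of the 17 mitotic genes a CHR match lay within 50 bases of the start. This was not counted for all genes, so there is no share to set beside it, and several of the 17 have more than 1 CHR match. A match is only a run of letters, and binding was not measured here.

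**Figure D1:**
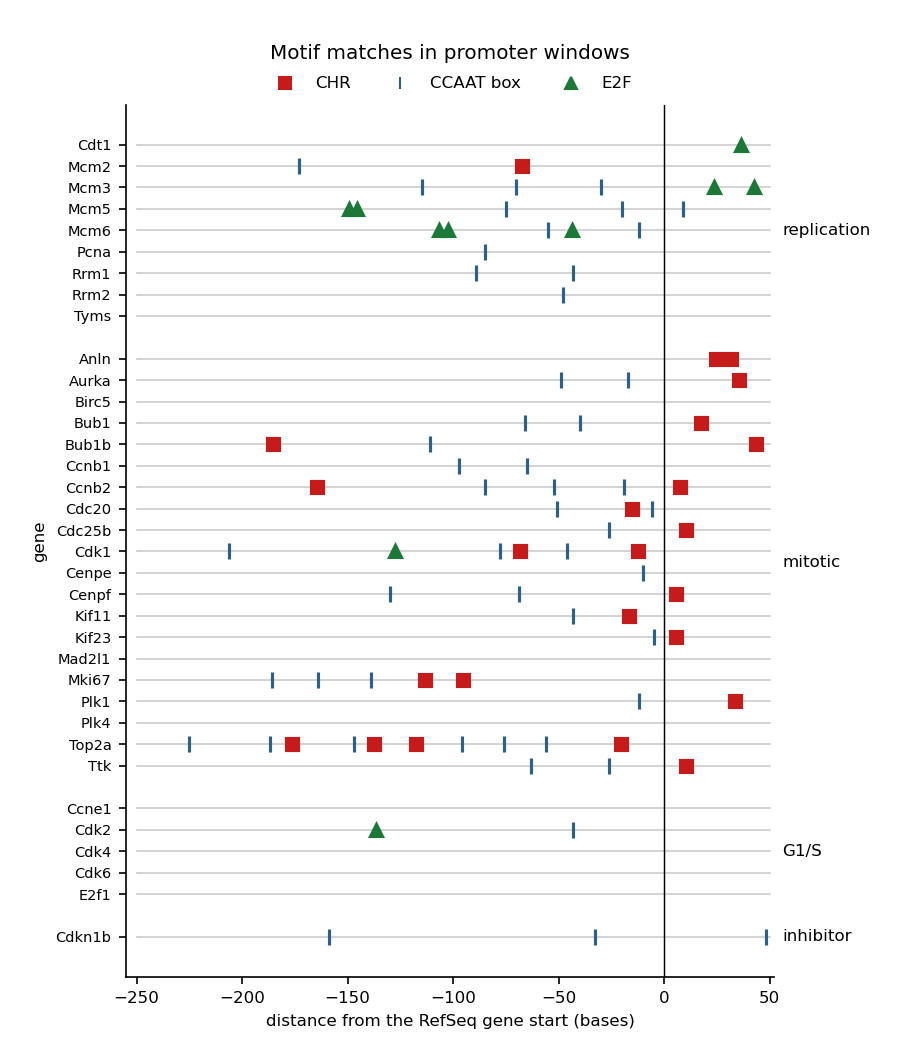
Motif matches in RefSeq promoter windows of the listed genes that have 1 window, by distance from the gene start in bases (vertical line at 0). Red squares are CHR matches, blue bars CCAAT and green triangles E2F matches. CHR matches crowd near the start in the mitotic genes, and E2F matches lie mostly in the Mcm genes and Cdt1.

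The windows of 5 genes that recur in the results are given 5′ to 3′ with the matches in capitals, 3 from mitotic genes that rose in cKO intestine, 1 from the replication gene that rose and 1 from an Mcm gene with E2F letters. They are Anln (chr9:22389157-22389456, minus strand), Kif23 (chr9:61946750-61947049, minus strand), Plk1 (chr7:122159185-122159484, plus strand), Rrm2 (chr12:24708004-24708303, plus strand) and Mcm6 (chr1:128359656-128359955, minus strand).
Anln: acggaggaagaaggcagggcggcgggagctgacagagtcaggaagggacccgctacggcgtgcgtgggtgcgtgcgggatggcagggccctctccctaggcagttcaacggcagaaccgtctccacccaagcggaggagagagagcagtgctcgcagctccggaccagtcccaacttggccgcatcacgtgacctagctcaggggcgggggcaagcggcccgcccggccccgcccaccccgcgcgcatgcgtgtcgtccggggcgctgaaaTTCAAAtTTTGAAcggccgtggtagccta
Kif23: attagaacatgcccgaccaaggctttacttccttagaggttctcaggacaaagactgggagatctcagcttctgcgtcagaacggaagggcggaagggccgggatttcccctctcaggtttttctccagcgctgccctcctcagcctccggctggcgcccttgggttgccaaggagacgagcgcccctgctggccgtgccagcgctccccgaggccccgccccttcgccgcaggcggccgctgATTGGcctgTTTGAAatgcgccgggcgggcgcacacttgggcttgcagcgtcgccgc
Plk1: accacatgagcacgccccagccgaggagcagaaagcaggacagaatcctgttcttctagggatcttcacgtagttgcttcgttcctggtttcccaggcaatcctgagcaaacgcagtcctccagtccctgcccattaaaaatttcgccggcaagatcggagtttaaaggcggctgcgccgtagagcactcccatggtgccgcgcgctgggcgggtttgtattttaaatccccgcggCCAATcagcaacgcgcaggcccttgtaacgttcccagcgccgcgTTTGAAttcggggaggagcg
Rrm2: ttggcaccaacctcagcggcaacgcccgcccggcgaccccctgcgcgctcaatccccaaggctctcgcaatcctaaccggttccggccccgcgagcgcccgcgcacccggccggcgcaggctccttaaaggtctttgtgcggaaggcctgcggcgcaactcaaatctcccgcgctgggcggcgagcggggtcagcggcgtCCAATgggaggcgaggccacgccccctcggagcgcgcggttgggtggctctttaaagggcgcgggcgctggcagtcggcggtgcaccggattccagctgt
Mcm6: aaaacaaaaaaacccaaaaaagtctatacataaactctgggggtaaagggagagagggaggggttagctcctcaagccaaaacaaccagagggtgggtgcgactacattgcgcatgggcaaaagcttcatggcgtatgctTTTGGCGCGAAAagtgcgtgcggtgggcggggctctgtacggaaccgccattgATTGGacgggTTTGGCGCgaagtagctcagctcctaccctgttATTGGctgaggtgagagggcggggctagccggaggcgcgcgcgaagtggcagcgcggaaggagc
Anln, for the ring protein anillin, has TTCAAA at 22 to 27 and TTTGAA at 29 to 34 bases after the start and no CCAAT. Kif23 and Plk1 each have 1 CCAAT box, written ATTGG where it lies on the other strand, before the start and 1 TTTGAA after it. The Rrm2 window holds 1 CCAAT box and neither CHR nor E2F letters. In Mcm6 the first pair of E2F matches overlap, so that their capitals run together.

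The values are the authors' log2 expression values, used as deposited, and differences are cKO minus control. Cdh1 itself, the targeted gene, read 9.70, 8.38 and 8.91 in cKO samples 1, 2 and 3, against 9.86, 9.82 and 10.15 in controls 1, 2 and 3, a difference of -0.95 (SE 0.31, limma adjusted p = 0.088). The groups did not overlap, and a two-sided exact permutation test returned p = 0.1, which 3 against 3 cannot go below. Relative to the control mean, cKO 1, 2 and 3 stood at -0.24, -1.56 and -1.03. Correlations between arrays over all genes were 0.972 to 0.978 within cKO, 0.981 to 0.987 within controls and 0.929 to 0.966 between the groups. The median of all genes differed by -0.09, and cKO 2 stood apart in that its dim genes read lower, with the median of 1231 olfactory, vomeronasal and taste receptor genes at -0.37 relative to the controls there and between -0.06 and 0.09 elsewhere. All 48 members lay above the 95th percentile of these receptor genes on all 6 arrays.

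Cell cycle transcripts were mostly higher in cKO intestine, by modest amounts. Of the 48 members 10 rose and 1 fell (limma, Benjamini-Hochberg adjusted p under 0.05 over all 19938 genes), where 6.81% of all genes rose, 7.36% fell and 14.2% changed in either direction. The risers were Cdk6, Rrm2 and the mitotic genes Anln, Kif23, Ect2, Prc1, Plk1, Kif20a, Cdc25b and Cenpf, and the gene that fell was the CDK inhibitor Cdkn1c. The measured difference was positive for 44 of 48 members, with a median of 0.45 on the log2 scale (1.36-fold), whereas it was positive for 38.9% of all genes. That share goes with the median of -0.09 over all genes. With each array centred on its median, the median over all genes was 0.007 and 45 of 48 members were positive. In 33 members all 3 cKO values lay above all 3 control values, as they did in 16.0% of all genes. In 2 members, Cdkn1c and Cdk4, all cKO values lay below all controls (19.3% of all genes; 35.4% in either direction). The count of 10 depended on single arrays: it was 16 without cKO 1, 4 without cKO 3, 3 without control 2 and 4 without control 3, and the share of all genes that rose was then 6.39%, 3.30%, 2.55% and 3.35%. In whole tissue, a larger share of dividing cells and more RNA per dividing cell cannot be told apart.

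**Figure D2:**
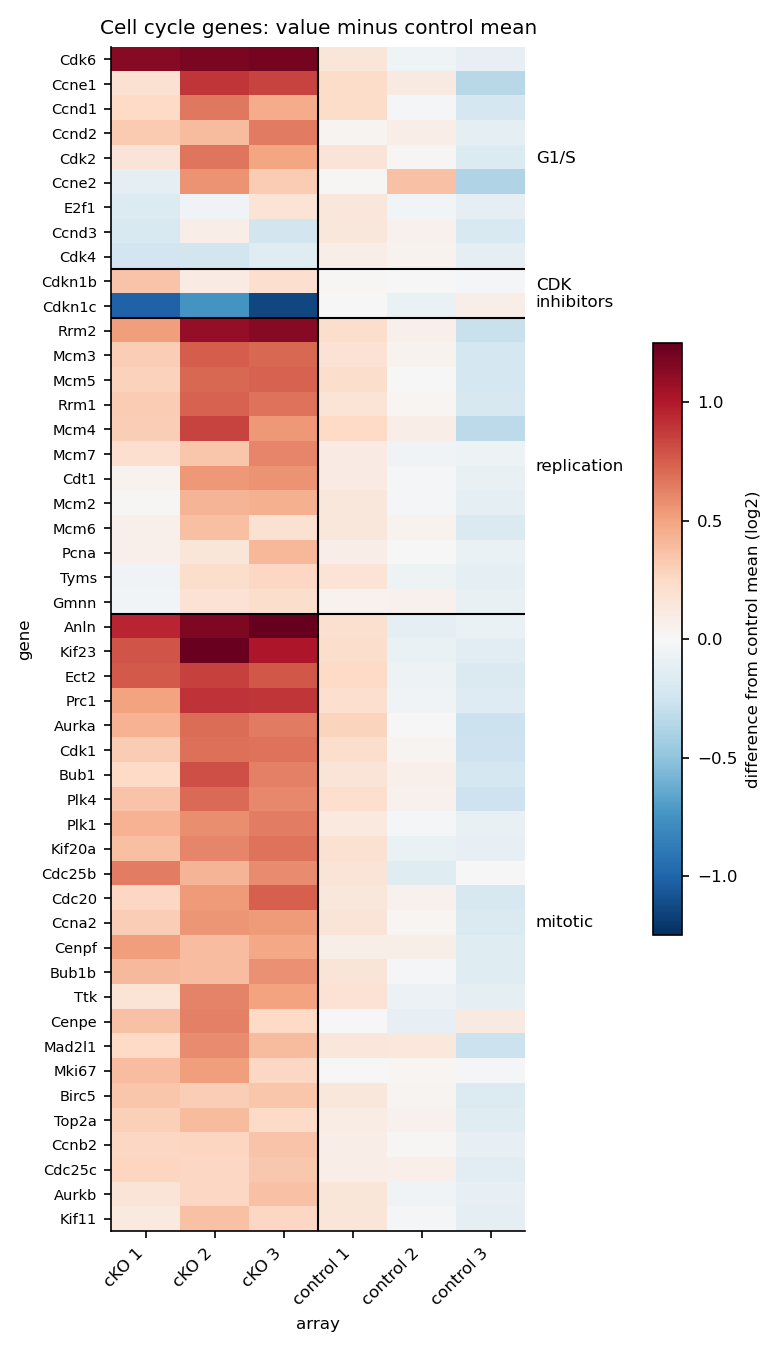
Value of each of the 48 members on each array minus its control mean (colour, log2), with the 3 cKO arrays left of the 3 control arrays and the genes ordered by phase and by difference. Red fills most of the cKO columns of the mitotic and replication genes, more faintly on cKO 1, and Cdkn1c is the 1 strongly blue row there.

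By phase, the count of risers was read against the same background, and with all arrays in the fit the share was highest among mitotic genes, an order that single arrays turned. Of 25 mitotic genes 8 rose (32.0%), of 12 replication genes 1 rose (8.33%) and of 9 G1/S genes 1 rose (11.1%), and 0 of these genes fell, also at an unadjusted p under 0.05. The shares for replication and G1/S genes are close to the 6.81% of all genes. The median differences were nearer to each other, 0.46 for mitotic, 0.38 for replication and 0.44 for G1/S genes. All 25 mitotic and all 12 replication differences were positive, as were 6 of 9 in G1/S. The groups stood fully apart, with cKO higher, in 23 of 25 mitotic genes, in 6 of 12 replication genes and in 3 of 9 G1/S genes. Among all genes this held for 16.0%. The spread among cKO arrays was wider for replication genes, with a median SD of 0.24, than for mitotic genes at 0.13. Without cKO 1 the replication share was the highest, at 5 of 12 (41.7%) against 9 of 25 mitotic genes (36.0%). The mitotic count was 3 without cKO 3 (12%), 2 without control 2 (8%) and 3 without control 3 (12%). Without control 2 that share lay below the 1 of 9 of the G1/S genes (11.1%). The replication count was 0 without cKO 2, cKO 3, control 2 or control 3. No test was made of the difference between the phases, since members of a phase share their samples.

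**Figure D3:**
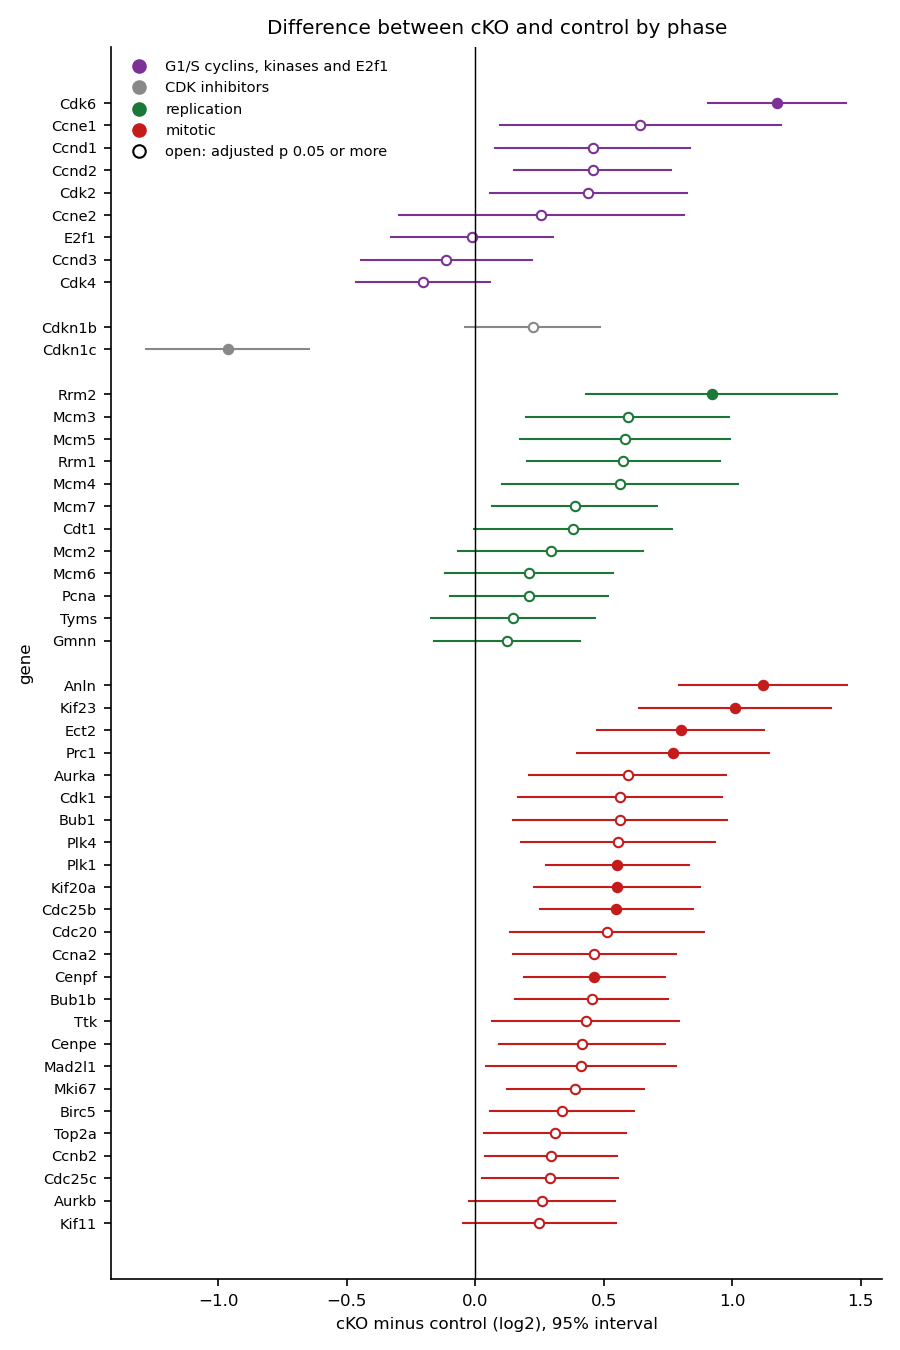
Difference between cKO and control (log2) for each member with its 95% interval from limma, coloured by phase. Filled points passed an adjusted p of 0.05, and of these 10 lie to the right of 0 and Cdkn1c lies to the left.

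Among the D-type cyclins and their kinases, Cdk6 stood out. It read 8.60, 8.64 and 8.66 in cKO 1, 2 and 3, against 7.61, 7.41 and 7.36 in controls 1, 2 and 3. The cKO values were nearly equal and at least 0.99 above the controls. Cdk6 thus rose by 1.17 (SE 0.11, 95% interval 0.90 to 1.44, limma adjusted p = 0.0014), or 2.26-fold. Its partner kinase Cdk4, which binds the same cyclins, read 11.43, 11.44 and 11.52 in cKO and 11.75, 11.71 and 11.54 in controls, a difference of -0.20 (SE 0.11, adjusted p = 0.28). The cKO values of Cdk4 lay just below the controls, by 0.02 at the nearest. The contrast between the kinases was not tested.

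The cyclin D genes, whose products sense growth signals in G1, did not pass the test. Ccnd1 read 8.92, 9.33 and 9.14 in cKO, against 8.90, 8.66 and 8.46 in controls, a difference of 0.46 (SE 0.16, adjusted p = 0.11). Ccnd2 read 11.43, 11.50 and 11.75 in cKO, against 11.14, 11.19 and 10.98 in controls, also a difference of 0.46 (SE 0.13, adjusted p = 0.060). In both genes the groups stood apart, for Ccnd1 by only 0.02 between cKO 1 and control 1. Ccnd3 differed by -0.11 (adjusted p = 0.64) with overlapping groups. Ccnd2 passed the test in 7 of 9 other processing settings and in 0 of 6 fits that left out 1 array. Ccnd3 passed in 0 of these 15 alternatives.

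The E cyclins, which with Cdk2 start S phase, varied between arrays. Ccne1 read 7.79, 8.50 and 8.45 in cKO, against 7.83, 7.72 and 7.26 in controls, a difference of 0.64 (SE 0.23, adjusted p = 0.12). Here cKO 1 lay within the controls while cKO 2 and cKO 3 lay above them. Without cKO 1 the difference was 0.87 and passed the test (limma adjusted p = 0.035). Of 15 alternatives Ccne1 passed in only 2, that one and array weights, and its limma adjusted p reached 0.33. Cdk2 showed the same layout, with 8.46, 8.97 and 8.79 in cKO and 8.46, 8.31 and 8.13 in controls (0.44, adjusted p = 0.13). It passed in 1 of 15 alternatives, array weights, and not without cKO 1. Ccne2 differed by 0.26 (95% interval -0.30 to 0.81) and E2f1, the activator of S phase genes, by -0.01 (95% interval -0.33 to 0.30).

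The CDK inhibitors gave the 1 gene that fell. Cdkn1c, for the inhibitor p57, read 10.98, 11.24 and 10.85 in cKO, against 11.99, 11.90 and 12.07 in controls. All cKO values lay at least 0.66 below all controls. Cdkn1c fell by 0.96 (SE 0.14, 95% interval -1.28 to -0.65, limma adjusted p = 0.0046), to 0.513 of the control level. Cdkn1b, for the inhibitor p27, read 8.84, 8.59 and 8.70 in cKO, against 8.50, 8.49 and 8.47 in controls, a difference of 0.22 (SE 0.11, adjusted p = 0.24), and its second probe set differed by 0.11.

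In the replication group the largest difference was in Rrm2, for the regulated subunit of ribonucleotide reductase, the enzyme that makes deoxynucleotides. It read 9.19, 9.77 and 9.81 in cKO, against 8.89, 8.73 and 8.39 in controls. The groups stood apart by 0.30, with cKO 1 the nearest to the controls. Rrm2 rose by 0.92 (SE 0.21, 95% interval 0.43 to 1.41, limma adjusted p = 0.027), or 1.89-fold, a call lost without cKO 2, cKO 3, control 2 or control 3 (highest adjusted p = 0.10). Rrm1, for the large subunit of the same enzyme, read 9.67, 10.09 and 10.04 in cKO and 9.53, 9.38 and 9.16 in controls, a difference of 0.58 (adjusted p = 0.054). Rrm1 passed in 6 of 9 other settings and in 1 of 6 leave-outs, that of cKO 1.

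The 6 Mcm genes, which encode the ring of the replicative helicase, ranged from 0.21 for Mcm6 to 0.59 for Mcm3, and 0 of the 6 passed the limma test. An unadjusted limma p under 0.05 was reached by 4 of them (Mcm3, Mcm4, Mcm5 and Mcm7), and by 5732 of all 19938 genes in either direction. Mcm3 read 9.16, 9.61 and 9.57 in cKO, against 9.03, 8.90 and 8.63 in controls (adjusted p = 0.058). Mcm5 read 8.97, 9.40 and 9.42 in cKO, against 8.90, 8.68 and 8.46 in controls (0.58, adjusted p = 0.068). In both the groups stood apart with cKO 1 close to control 1. For Mcm2 and Mcm6, cKO 1 lay below control 1 at 8.86 against 8.99 and at 9.46 against 9.54. Mcm4 and Mcm7 differed by 0.56 and 0.39 (adjusted p = 0.11 each).

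The licensing factor gene Cdt1 differed by 0.38 and Gmnn, for its inhibitor geminin, by 0.12 (adjusted p = 0.18 and 0.54). Pcna, for the sliding clamp of the polymerases, differed by 0.21 (SE 0.13, adjusted p = 0.34). A second probe set annotated to Pcna gave almost the same value on every array, so the pair may share target sequence. Tyms, for thymidylate synthase, differed by 0.15 (95% interval -0.17 to 0.47). The intervals of Gmnn, Pcna and Tyms include 0 and reach 0.41, 0.52 and 0.47.

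Mitotic genes were next compared by role, a grouping made by textbook function after the values had been seen. Among the 6 genes of spindle motors, midzone and cytokinesis 5 rose. Among 9 genes grouped as regulators of mitotic entry and exit, with the centriole kinase gene Plk4 placed there too, 2 rose. Among 10 genes of chromosomes, kinetochores and the checkpoint 1 rose, where 6.81% of all genes rose. The 1 of 10 is near that share. Their median differences were 0.78, 0.55 and 0.41. Anln, for anillin, the scaffold of the contractile ring, read 9.06, 9.27 and 9.35 in cKO, against 8.31, 7.99 and 8.02 in controls. The groups lay 0.75 apart at their nearest. Anln rose by 1.12 (SE 0.14, 95% interval 0.79 to 1.45, limma adjusted p = 0.0030), or 2.17-fold.

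Kif23, for the motor of the centralspindlin complex at the midzone, read 8.58, 9.03 and 8.80 in cKO, against 8.01, 7.71 and 7.66 in controls. It rose by 1.01 (SE 0.16, limma adjusted p = 0.0069), or 2.01-fold, with no overlap. Ect2, for the exchange factor that centralspindlin recruits to activate RhoA, read 9.21, 9.30 and 9.22 in cKO, against 8.69, 8.38 and 8.26 in controls. It rose by 0.80 (SE 0.14, limma adjusted p = 0.0098), and the 3 cKO values lay within 0.1 of each other while the controls were more spread. Prc1, for the bundler of midzone microtubules, read 8.54, 8.94 and 8.93 in cKO and 8.24, 7.99 and 7.87 in controls. It rose by 0.77 (SE 0.16, limma adjusted p = 0.020). Kif20a, for a midzone kinesin, rose by 0.55 (SE 0.14, adjusted p = 0.037), and Kif11, for the motor that separates spindle poles, differed by 0.25 (adjusted p = 0.25), with overlapping groups. Anln and Kif23 kept their calls in all 15 alternatives (9 other settings and 6 leave-outs), Ect2 in 14, Prc1 in 12 and Kif20a in 10. Ect2 lost its call without control 2, Prc1 without cKO 3, control 2 or control 3, and Kif20a without those or cKO 2. Kif20a also lost it with the replicate block, a fit that pairs samples by number.

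**Figure D4:**
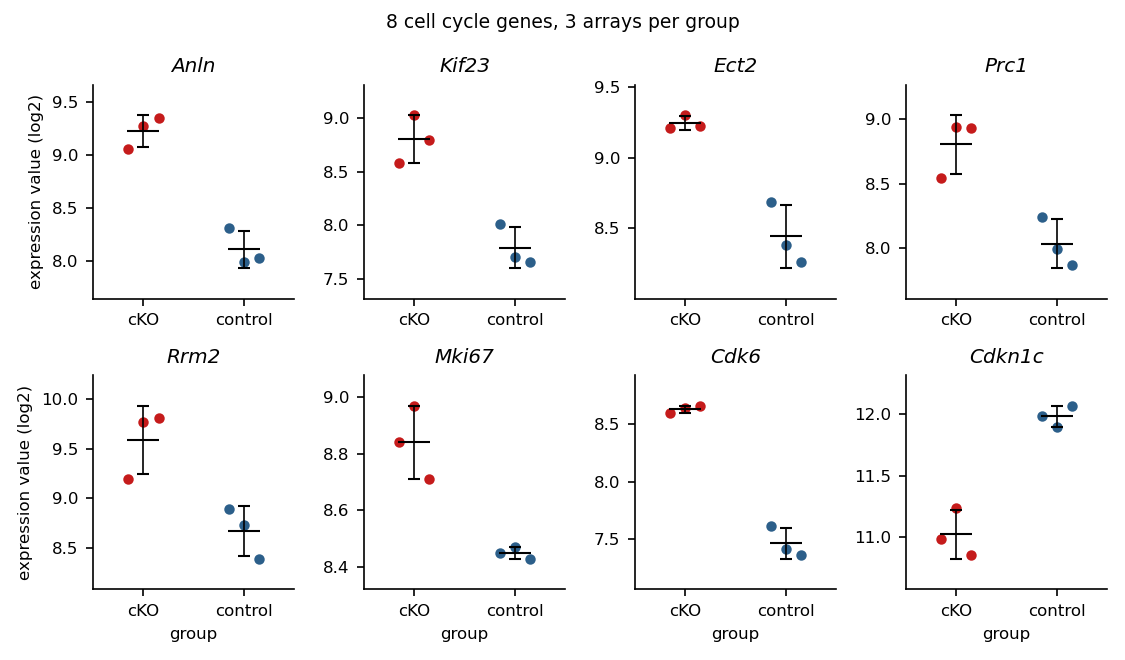
Log2 expression values of 8 members on the 3 cKO arrays (red, left in each panel) and the 3 control arrays (blue, right), points in replicate order, with the mean (long bar) and SD. Scales differ between panels and do not start at 0; the groups do not overlap in any of the 8, and only Cdkn1c is lower in cKO.

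Of the entry and exit regulators, Plk1, for Polo-like kinase 1, read 9.32, 9.47 and 9.53 in cKO, against 9.01, 8.86 and 8.79 in controls. It rose by 0.55 (SE 0.12, limma adjusted p = 0.022). Cdc25b, for a phosphatase that activates CDK1, read 8.03, 7.82 and 7.98 in cKO, against 7.55, 7.24 and 7.39 in controls, and rose by 0.55 (SE 0.13, limma adjusted p = 0.029). Both were clear of the controls on every cKO array, and for Cdc25b cKO 1 was the highest. Both lost their calls without cKO 3, control 2 or control 3, Cdc25b also without cKO 1 and Plk1 also with the replicate block. The other 7 genes of the group, Plk4 included, did not pass but had all cKO values above all controls, as had 16.0% of all genes. They ranged from 0.29 for Cdc25c, for another CDK1 phosphatase, and for the cyclin gene Ccnb2 to 0.59 for Aurka, the Aurora A kinase gene (adjusted p = 0.053 to 0.14). Between them lay Cdk1 and the centriole kinase gene Plk4 at 0.56, Cdc20, for the activator of mitotic exit, at 0.51 and the cyclin A2 gene Ccna2 at 0.46.

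Of the chromosome, kinetochore and checkpoint genes, Cenpf, for an outer kinetochore protein, rose by 0.46 (SE 0.12, limma adjusted p = 0.039). It read 7.38, 7.24 and 7.34 in cKO, against 6.93, 6.93 and 6.71 in controls. The groups were apart, but the call was lost on leaving out any array other than cKO 2, and with the replicate block. Mki67, for the proliferation antigen Ki-67, read 8.84, 8.97 and 8.71 in cKO, against 8.45, 8.47 and 8.43 in controls. The controls of Mki67 were nearly equal and all cKO values lay above them, but the difference of 0.39 (SE 0.11, 95% interval 0.12 to 0.66) missed the threshold (limma adjusted p = 0.063). Top2a, for topoisomerase II alpha, differed by 0.31 (adjusted p = 0.13), and its second probe set lay below the receptor level on all 6 arrays. The checkpoint genes Bub1, Bub1b, Mad2l1 and Ttk differed by 0.56, 0.45, 0.41 and 0.43 (adjusted p = 0.056 to 0.13). The kinetochore motor gene Cenpe differed by 0.42, and Aurkb and Birc5, of the chromosomal passenger complex, by 0.26 and 0.34 (adjusted p = 0.091, 0.21 and 0.11).

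The arrays differed in how much of this they showed. Relative to the control mean, the median of the 25 mitotic genes was 0.36, 0.58 and 0.57 on cKO 1, 2 and 3, and 0.16, 0.00 and -0.15 on controls 1, 2 and 3. The median of the 12 replication genes was 0.14, 0.48 and 0.55 on cKO 1, 2 and 3, and 0.16, 0.01 and -0.15 on controls 1, 2 and 3. The replication median of cKO 1 thus lay within the controls, while its mitotic median lay above all of them. For the 9 G1/S genes the medians were 0.16, 0.56 and 0.47 in cKO and 0.14, 0.04 and -0.17 in controls. The array with the smallest Cdh1 difference, cKO 1, was also the lowest of the cKO arrays for all 3 phases. Yet cKO 2, with the largest Cdh1 difference, lay below cKO 3 for replication genes and level with it for mitotic genes. For G1/S genes cKO 2 lay above cKO 3. Such a relation was not tested, and 3 arrays are too few for it.

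**Figure D5:**
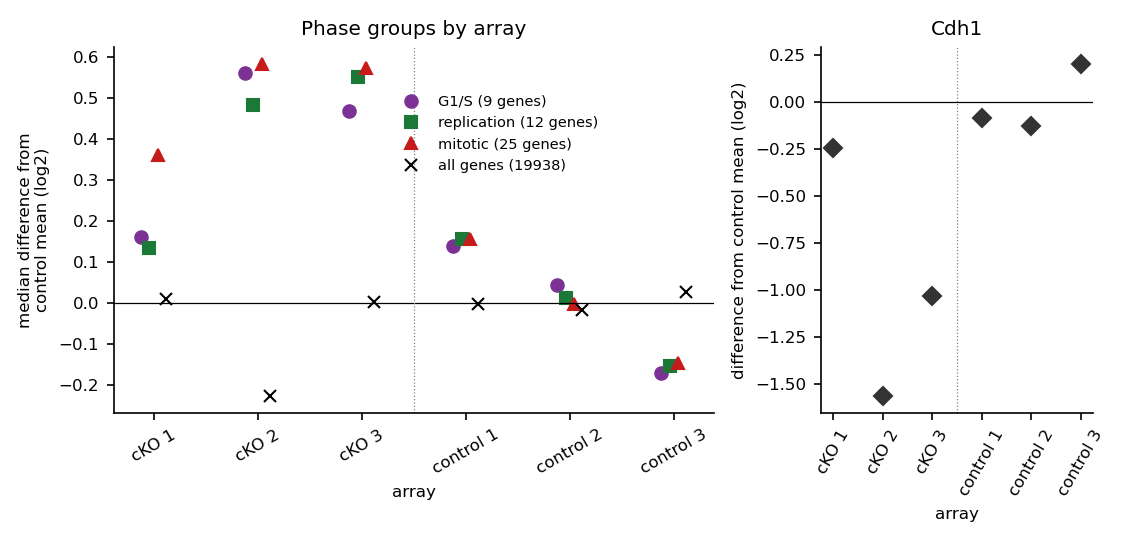
Left, median over the genes of a phase of the difference from the control mean (log2) on each array, cKO arrays left of control arrays, with the median of all genes as crosses. Right, the same difference for Cdh1. On cKO 1 the replication and G1/S medians lie at the level of control 1, while the mitotic median lies above it.

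Further genes of the same machinery, listed by textbook function, were counted in the same fit. Of 57 other mitotic genes 12 rose (21.1%), with a median of 0.34, and 56 of 57 differences were positive. The 4 with the smallest p were Cep55, for an abscission scaffold at the midbody, at 1.00 (SE 0.15, limma adjusted p = 0.0053), Tacc3, for a spindle protein, at 0.79 (SE 0.14, adjusted p = 0.0097), the condensin gene Smc2 at 0.56 and the spindle gene Hmmr at 0.56. Cep55 read 7.85, 8.15 and 8.04 in cKO, against 7.18, 7.07 and 6.79 in controls, with no overlap. Of 44 other replication genes 3 rose (6.82%), close to the 6.81% of all genes, although 43 of 44 differences were positive with a median of 0.33. The 3 were the clamp loader gene Rfc1 at 0.46, Uhrf1, which links replication to DNA methylation, at 0.61 and the polymerase gene Pole at 0.50 (adjusted p = 0.024, 0.035 and 0.042). Of 15 alternatives Rfc1 lost its call in 5 and Uhrf1 in 6, and Pole lost it in 8 of the 14 that tested it, median centring and cyclic loess included. All 3 lost it without cKO 3, control 2 or control 3 and with the replicate block, as did Smc2 and Hmmr. Cep55 and Tacc3 were called in all 15. Pola1, for the polymerase that primes synthesis, differed by 0.39 (adjusted p = 0.058).

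Of 30 genes of the retinoblastoma, E2F and G1/S control machinery 2 rose (6.67%) and 3 fell (10.0%), with a median of -0.09. Both shares are near those of all genes, 6.81% and 7.36%. E2f8, for an E2F that represses S phase genes, read 7.35, 7.53 and 7.54 in cKO, against 8.34, 8.49 and 8.76 in controls, and fell by 1.06 (SE 0.14, limma adjusted p = 0.0039). Cdkn2c, for the CDK4 and CDK6 inhibitor p18, fell by 0.58 (SE 0.11, adjusted p = 0.012), and Lin52, for a subunit of the complex that switches cell cycle promoters, by 0.75 (SE 0.15, adjusted p = 0.018). For Lin52, which has 2 probe sets, their mean differed by only -0.39 and did not pass (adjusted p = 0.073). Mybl2, for the B-Myb partner of that complex, rose by 0.66 (SE 0.14, adjusted p = 0.022). Of these 4, E2f8 was called in all 15 alternatives, and the other 3 lost their calls without cKO 3, control 2 or control 3. The other riser, chosen for mention after its values were seen, was Foxm1, for the activator of mitotic genes, at 0.46 (adjusted p = 0.049). Over all 131 further genes 17 rose (13.0%, against 6.81% of all genes) and 3 fell (2.29%, against 7.36%). The risers numbered 8 without cKO 2 (6.11%, against 6.08% of all genes) and 9 without control 1 (6.87%, against 4.60%). Without cKO 3, control 2 or control 3 they numbered 2 (1.53%), below the 3.30%, 2.55% and 3.35% of all genes, and 1 fell.

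Markers of the other cells of the intestine moved in the same samples, and their counts stand against the 6.81% of all genes that rose and the 7.36% that fell. Of 12 enterocyte markers 8 fell, and their summed linear level ran from 25404 to 26239 in cKO and from 43497 to 59360 in controls. Of 10 smooth muscle markers 9 rose (29091 to 31736 in cKO, 16625 to 20111 in controls), of 9 fibroblast and matrix markers 9 rose (17132 to 20085 in cKO, 10607 to 12455 in controls) and of 10 macrophage markers 7 rose (3311 to 4358 in cKO, 2057 to 2210 in controls). Of 11 stem cell and crypt markers 3 rose (2406 to 3224 in cKO, 2363 to 2975 in controls), as did 3 of 10 general epithelial markers (25275 to 27305 in cKO, 19732 to 22605 in controls) and 3 of 10 neutrophil markers (651 to 1378 in cKO, 518 to 525 in controls). These 3 lists were mixed, and a linear sum mostly follows its brightest genes. Only 4 of 10 general epithelial differences were positive (-0.31 to 1.19, median -0.06). Positive differences numbered 8 of 11 for stem cell and crypt (-1.81 to 1.88) and 7 of 10 for neutrophil markers (-0.40 to 3.28). For neurons and glia 2 of 8 rose (1670 to 1730 in cKO, 1294 to 1508 in controls) and for lymphocytes 1 of 8 (686 to 807 in cKO, 660 to 704 in controls). Positive differences numbered 6 of 8 for neurons and glia and 3 of 8 for lymphocytes. By limma 0 of 10 endothelial, 0 of 6 erythroid and 0 of 8 pancreatic acinar markers passed in either direction. At an unadjusted limma p under 0.05 the counts were 5, 1 and 0, against 5732 of all 19938 genes. Positive differences numbered 9 of 10, 0 of 6 and 8 of 8 in the same order, against 38.9% of all genes. Endothelial sums were 3368 to 3421 in cKO and 2798 to 2963 in controls, erythroid sums 1088 to 1356 in cKO and 1328 to 1363 in controls, and acinar sums 388 to 14791 in cKO and 527 to 623 in controls. No marker of these lists was at 0 on any array. Below the receptor level on all 6 arrays lay 1 of 12 enterocyte (Sis), 3 of 10 neutrophil (Mpo, Camp and Ngp), 3 of 8 lymphocyte (Cd3g, Cd79a and Ms4a1), 2 of 6 erythroid (Epb42 and Hemgn), 1 of 8 neuron and glia (S100b) and 1 of 8 acinar markers (Ptf1a). The part of these shifts in the cell cycle differences was not tested.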

How the data were processed

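The authors deposited 1 table of expression values for 35512 probe sets on 6 arrays, made with dChip per the series design text. Its log2 scale, deposited without a label, was read from the values. For dChip's version, background correction and normalization, the labels' protocols and the design text give nothing. Differences were computed from the log2 values as deposited. Precision is limited by the number of arrays, and arrays give no counting depth.

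The platform annotation gave 1 symbol for 21789 probe sets, several for 1621 and none for 12102, and 21698 matched the RefSeq gene table by identifier. The brightest probe set per gene left 19938 genes. The comparison used limma 3.58.1 in R 4.3.3 (lmFit and eBayes, no covariate, two-sided) with Benjamini-Hochberg adjustment over all genes at 0.05, checked on simulated data. The members, phases, further gene lists and marker lists were chosen with earlier results of these data known. Every member could be named, as could Cdh1 and the 4 genes with the smallest p of each further list. The background level was the 95th percentile of receptor genes. Alternatives were 9 other settings and leaving out each of 6 arrays. No coordinates are given for probe sets, since the labels name no build.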

Additional observations from a re-analysis of the deposited data

How the results depend on the processing

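Of the 48 members, Cdk6, Kif23 and Anln (higher) and Cdkn1c (lower) passed the threshold in all 15 alternatives, the other 7 called members lost the call in at least 1, and 27 uncalled members gained one in at least 1. The count of members that rose was 22 with quantile normalization, 20 with cyclic loess, 21 without the dimmest 25% of genes, 26 without the dimmer 50%, 36 with array weights and 22 with an intensity trend, where 9.18%, 8.44%, 11.4%, 16.3%, 14.7% and 8.47% of all genes rose. In the same order replication risers were 5, 4, 4, 5, 9 and 4 and mitotic risers 15, 14, 15, 19, 22 and 16. The further lists had 28, 33, 57 and 27 risers without the dimmest 25%, without the dimmer 50%, with array weights and with the trend. Their fallers numbered 5 of 111 without the dimmer 50% and 5 of 131 with array weights, where 16.9% and 14.6% of all genes fell. With array weights 2921 genes rose and 2913 fell in all. Leaving out each array gave 509 to 1275 genes higher and 717 to 1438 lower, 3 to 16 members, 0 to 5 replication and 2 to 9 mitotic risers, 2 to 23 risers and 1 to 4 fallers of the further lists, and Cdh1 differences of -1.30 to -0.64. Cdh1 passed without cKO 1 (-1.30), without the dimmer 50% (-0.95), with array weights (-0.89) and with the trend (-0.95). E2f1 turned positive with quantile normalization (0.00889), median centring (0.0833), cyclic loess (0.0216) and array weights (0.106), and ranged from -0.105 to 0.065 over the leave-outs, turning positive without cKO 1 (0.065) or control 1 (0.0567). Deviations from the group means correlated at -0.08, 0.13 and 0.14 between same-numbered samples, and at -0.24 to 0.15 between the other pairs. Deviations from a mean of 3 samples are bound to each other, so these values cannot settle whether the numbers pair samples. Pairing by number was used only in the replicate block. The replicate block gave 7 members, 5 mitotic genes and 4 of the 131 genes of the further lists (3.05%) as higher, where 4.96% of all genes rose. The causes of these changes were not tested.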

Other observations

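The cell cycle genes also ordered the arrays within each group. Control 3 was the lowest of the controls for 44 of the 48 members, against 30.1% of all genes, and control 1 was the highest for 41 of 48, against 32.0%. Among cKO arrays, cKO 1 was the lowest for 37 of 48 members, against 25.2% of all genes, and for all 12 replication genes. The 44 further replication genes had control 3 lowest in 36 and cKO 1 lowest in 39, and the 57 further mitotic genes in 47 and 46. In the list of retinoblastoma and E2F control genes control 3 was lowest in 8 of 30 and cKO 1 in 13 of 30.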
